A study of Mus musculus with 6 samples.

Results

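Polycomb repressive complex 2 (PRC2) was followed in fetal liver (FL) cells that lack Pogz, through 8 genes named as its core and accessory subunits: Ezh1, Ezh2, Eed, Suz12, Jarid2, Mtf2, Phf19 and Phf1. They were taken by name from 18193 genes on the array, and 25 probe sets (groups of short probes summarized as 1 value) name exactly 1 of them. Over all 6 arrays the test used called none of the 8 subunit genes, and it called 0 of all 18193 genes. The brightest probe sets of Ezh2, Suz12, Jarid2 and Mtf2 were nevertheless higher in every Pogz-KO array than in any Pogz-WT array. So were 10.8% of all genes, and 25.7% of all probe sets with a mean log2 intensity of at least 8. For Ezh2 and Mtf2, 1 Pogz-WT array set much of the size of the differences. A fit without that array also let the variance follow the signal level. In it 2 probe sets of Suz12 rose, beside 1.45% of all probe sets. By contrast, 2 other probe sets of the same gene lay lower in every Pogz-KO array than in any Pogz-WT array, beside 15.8%.

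PRC2 methylates histone H3 at the lysine written H3K27, a mark of silenced genes. Ezh2 or Ezh1 is the catalytic subunit, Suz12 holds the complex together and Eed binds the finished mark and stimulates further methylation. Jarid2 and the Polycomb-like proteins Mtf2, Phf19 and Phf1 are accessory subunits that bring the core to chromatin. Some forms of PRC1, a second Polycomb complex, recognize the mark. In the FL, the main site of definitive erythropoiesis at this stage, dividing blood progenitors use mostly Ezh2, and Ezh1 is the form better known from cells that have stopped dividing.

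The 3 Pogz-KO arrays hold RNA of E14.5 Pogz-/- embryos, in which exons 13 to 19 of Pogz, a zinc finger protein of heterochromatin, are deleted in all tissues. The 3 Pogz-WT arrays hold RNA of E14.5 Pogz+/+ embryos, and both genotypes are on a C57BL/6 background after more than 10 backcross generations. Livers were minced to single cells without any sort, so each array reads a mixture of erythroid, other blood, hepatic and stromal cells, in which fewer cells of a type and less RNA per cell cannot be told apart. The labels call the 3 arrays of a genotype biological replicates.

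The knocked-out gene was read by 4 probe sets. Its brightest, 1455046_a_at, had log2 intensities of 9.16, 9.22 and 9.33 in Pogz-KO, against 9.17, 9.03 and 8.95 in Pogz-WT, and 1434650_at had 6.08, 5.35 and 6.25 in Pogz-KO, against 6.83, 6.00 and 6.60 in Pogz-WT. The dimmer 1454827_at had 6.04, 5.94 and 5.92 in Pogz-KO, against 3.56, 4.98 and 2.84 in Pogz-WT, and 1457748_at had 5.83, 5.39 and 5.15 in Pogz-KO, against 4.82, 4.58 and 2.54 in Pogz-WT. None of the 4 was lower in all Pogz-KO arrays, and the last pair was higher in all of them, with log2 differences of 2.17 (SE 0.57, limma adjusted p = 0.382) and 1.47 (SE 0.67, limma adjusted p = 0.44). Where the probes lie relative to the deleted exons was not analysed here, so these values are no check of the genotype.

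Among the 6 arrays, that of Pogz-WT replicate 1 differed most from the rest. Its correlation with them over 45037 probe sets was 0.794 to 0.810, against 0.884 to 0.906 for all other pairs. The ratio of the 3' to the 5' control probe sets, which climbs as RNA is degraded, was 3.72 to 4.09 for actin in Pogz-KO and 52.3, 5.50 and 6.63 in Pogz-WT replicates 1, 2 and 3. For Gapdh it was 4.87 to 5.08 in Pogz-KO and 15.3, 7.37 and 9.29 in the same Pogz-WT replicates. This measure therefore differed between the genotypes as well, also without replicate 1, and its part in the results was not tested. Each result is given over all 6 arrays and over the 5 arrays without Pogz-WT replicate 1. The 6-array fit used limma with Benjamini-Hochberg adjustment over all genes or all probe sets, and the 5-array fit also let the variance follow the signal level and damped outlying variances. An exact permutation test of 3 against 3 arrays cannot give a two-sided p below 0.1.

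Among 18193 genes, each read by its brightest probe set, the 6-array fit called 0% at an adjusted p under 0.05 and 13.1% at an unadjusted p under 0.05. Of the 8 subunit genes it called 0, and 0 had an unadjusted p under 0.05; the equal-variance test named in the study's methods also called 0. The 5-array fit called 2.41% of genes higher and 2.07% lower, and 0 of the 8, with an unadjusted p under 0.05 for Suz12 (0.0131) and Mtf2 (0.0194). Their median log2 fold change was 0.35 over 6 arrays, beside -0.17 for all genes, and 0.08 over 5 arrays, beside -0.10 for all genes. With each array centred on its own median, which moved the all-gene median of the 5-array fit to 0.18 and its split to 1844 genes higher and 100 lower, 4 subunit genes passed, namely Ezh2, Suz12, Jarid2 and Mtf2.

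**Figure D1:**
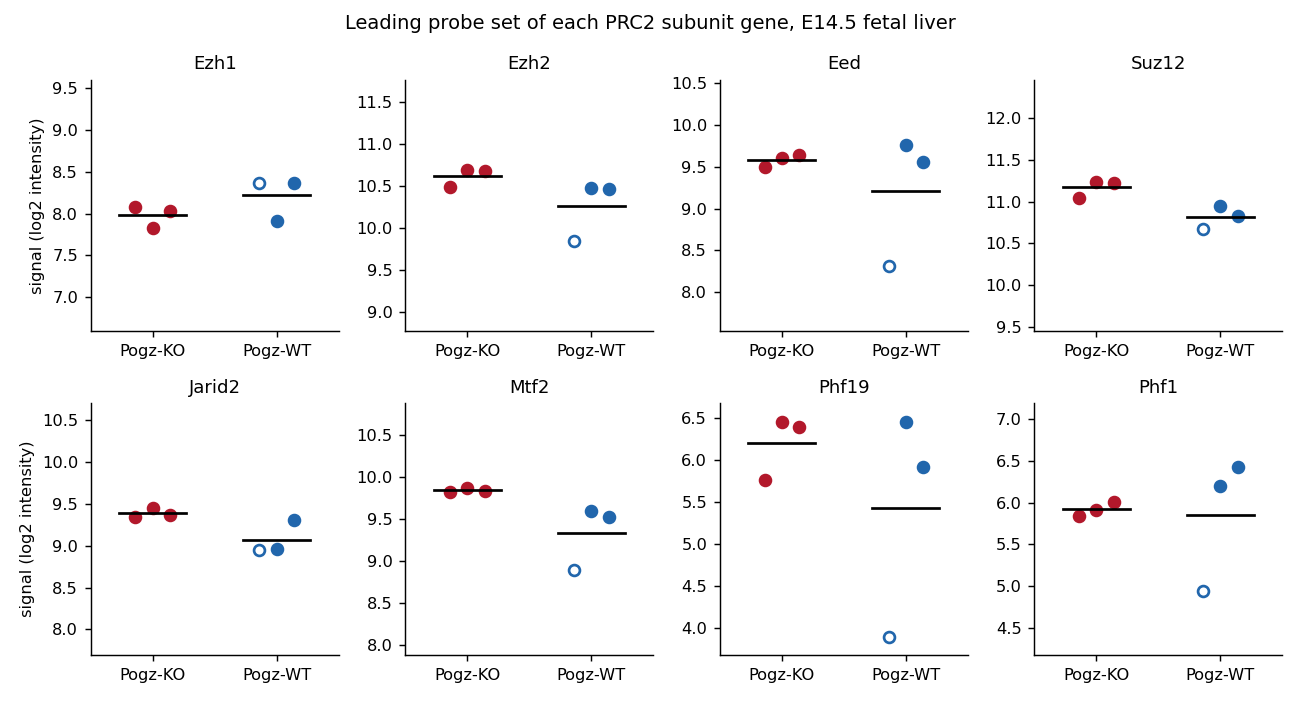
Log2 intensity of the brightest probe set of each PRC2 subunit gene in the 3 Pogz-KO arrays (red) and the 3 Pogz-WT arrays (blue; open circle, replicate 1), with bars at the group means. In Ezh2, Suz12, Jarid2 and Mtf2 every Pogz-KO point lies above every Pogz-WT point, and in all genes shown except Ezh1 the open circle is the lowest of the 6.

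The catalytic subunits are described first. Ezh2 (chr6:47530274-47595270, GRCm38.p6) has 1 probe set, with log2 intensities of 10.49, 10.69 and 10.68 in Pogz-KO, against 9.85, 10.48 and 10.47 in Pogz-WT; on the linear scale these are 1434, 1655 and 1636 in Pogz-KO and 921, 1429 and 1416 in Pogz-WT. All Pogz-KO arrays were above all Pogz-WT arrays, but Pogz-WT replicates 2 and 3 lay just under Pogz-KO replicate 1, while Pogz-WT replicate 1 was far below. The log2 fold change was 0.35 (SE 0.25, 95% interval -0.28 to 0.98, limma adjusted p = 0.525), and over 5 arrays 0.14 (SE 0.10, 95% interval -0.07 to 0.36, limma adjusted p = 0.482). Ezh1 (chr11:101191115-101226463) pointed the other way: its brightest probe set, 1449023_a_at, had 8.07, 7.82 and 8.03 in Pogz-KO, against 8.37, 7.91 and 8.37 in Pogz-WT. The groups overlapped through Pogz-WT replicate 2. The log2 fold change was -0.24 (SE 0.23, 95% interval -0.80 to 0.32, limma adjusted p = 0.620) over 6 arrays, -0.16 (SE 0.17, 95% interval -0.54 to 0.22, limma adjusted p = 0.669) over 5, and 0.22 over 6 arrays with median centring. A second Ezh1 probe set, 1418290_a_at, had 6.80, 6.56 and 6.49 in Pogz-KO, against 7.69, 6.61 and 6.93 in Pogz-WT, with overlap again. The remaining Ezh1 probe sets, 1429629_at and 1429630_at, were dim and overlapped.

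Eed, the subunit that reads the mark (chr7:89954654-89980976), had log2 intensities of 9.49, 9.60 and 9.63 in Pogz-KO, against 8.32, 9.75 and 9.55 in Pogz-WT at 1448653_at. The 3 Pogz-KO arrays lay between Pogz-WT replicates 1 and 2, and Pogz-WT replicate 1 was far below every other array. Its log2 fold change was 0.37 (SE 0.42, 95% interval -0.68 to 1.41, limma adjusted p = 0.685), and with that array left out it turned to -0.08 (SE 0.11, 95% interval -0.33 to 0.17, limma adjusted p = 0.768). The second Eed probe set, 1453830_at, was dim, with 4.76, 5.20 and 3.86 in Pogz-KO, against 3.52, 4.95 and 5.11 in Pogz-WT, and overlapped.

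Suz12, the scaffold (chr11:79993106-80034123), was the subunit with the clearest and also the least uniform readings. Its 6 probe sets were read separately, since the level of 1 probe set cannot be set against that of another. The brightest, 1420021_s_at, had 11.05, 11.24 and 11.22 in Pogz-KO, against 10.67, 10.95 and 10.83 in Pogz-WT, or 2117, 2417 and 2387 in Pogz-KO and 1627, 1976 and 1819 in Pogz-WT on the linear scale. Probe set 1427253_s_at had 10.01, 10.22 and 10.30 in Pogz-KO, against 8.20, 9.62 and 9.48 in Pogz-WT, and 1452364_at had 9.52, 9.77 and 9.81 in Pogz-KO, against 7.92, 9.03 and 8.87 in Pogz-WT. In all 3 the Pogz-KO arrays were above the Pogz-WT arrays, and Pogz-WT replicate 1 was the lowest. The brightest had a log2 fold change of 0.35 (SE 0.19, 95% interval -0.13 to 0.83, limma adjusted p = 0.437) and, over 5 arrays, 0.28 (SE 0.10, 95% interval 0.07 to 0.49, limma adjusted p = 0.141), which did not pass. For 1427253_s_at the 6-array value was 1.08 (SE 0.44, limma adjusted p = 0.429) and for 1452364_at 1.10 (SE 0.37, limma adjusted p = 0.397). Both rose over 5 arrays, by 0.63 (SE 0.12, limma adjusted p = 0.0193) and 0.75 (SE 0.13, limma adjusted p = 0.0122), or 1.54-fold and 1.68-fold.

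These were the only 2 of the 25 probe sets called in the 5-array fit, in which 1.45% of all 45037 probe sets were called higher and 1.22% lower. They read the same gene and so are not separate observations. Neither passed when Pogz-WT replicate 1 was left out of the plain limma fit (adjusted p = 0.420 and 0.392) or when only the variance model was changed, over 6 arrays (0.195 and 0.156). Both calls held after quantile normalization (adjusted p = 0.0347 and 0.0195). When a further array was left out, they held without Pogz-KO replicate 1 (adjusted p = 0.0120 and 0.00929) and were lost without Pogz-KO replicate 2 (0.0802 and 0.0597), Pogz-KO replicate 3 (0.110 and 0.0830), Pogz-WT replicate 2 (0.107 and 0.0840) or Pogz-WT replicate 3 (0.193 and 0.151).

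The other Suz12 probe sets did not follow. Probe set 1449661_at had 8.09, 7.70 and 7.89 in Pogz-KO, against 8.52, 8.14 and 8.54 in Pogz-WT, and 1420022_s_at had 7.29, 7.23 and 6.66 in Pogz-KO, against 8.89, 7.77 and 7.87 in Pogz-WT. In both, the Pogz-KO arrays lay below all Pogz-WT arrays, with log2 differences over 6 arrays of -0.51 (SE 0.26, limma adjusted p = 0.469) and -1.12 (SE 0.41, limma adjusted p = 0.409). Over 5 arrays these were -0.45 (SE 0.18, limma adjusted p = 0.253) and -0.76 (SE 0.22, limma adjusted p = 0.104), so neither passed. The last, 1420020_at, overlapped, with 6.73, 6.17 and 6.16 in Pogz-KO, against 6.18, 6.49 and 5.78 in Pogz-WT. Pogz-WT replicate 1 was the highest array in 1420022_s_at and the lowest in the 3 probe sets that were higher in Pogz-KO. Which part of the transcript each probe set reads was not analysed here, so it was not tested whether the split follows transcript ends or isoforms. Probe sets 1420021_s_at, 1427253_s_at and 1420022_s_at carry a suffix that marks probes common to several transcripts. Which transcripts these are was not analysed either.

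**Figure D2:**
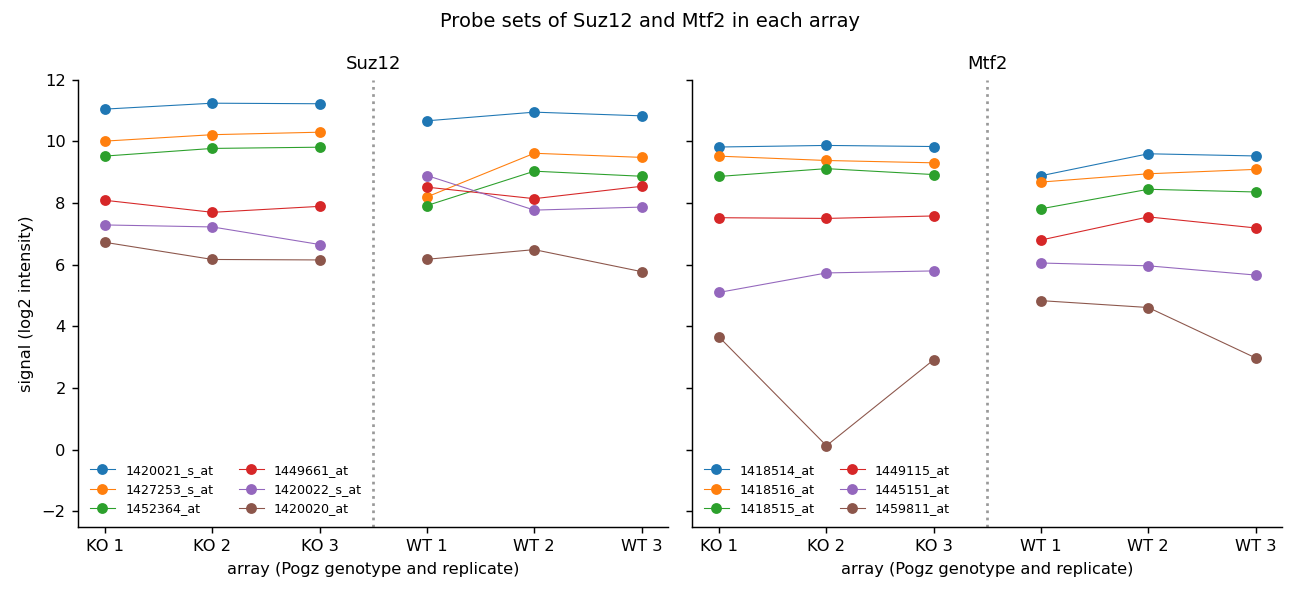
Log2 intensity of the 6 probe sets of Suz12 (left) and of Mtf2 (right) in each Pogz-KO and Pogz-WT array; lines only join the points of 1 probe set within a genotype. The 3 brightest probe sets of each gene were higher in all Pogz-KO arrays, and 2 dimmer Suz12 probe sets were lower.

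Of the accessory subunits, Mtf2, a Polycomb-like protein with Tudor and PHD domains (chr5:108065660-108109219), came closest to Suz12. Its brightest probe set, 1418514_at, had 9.82, 9.87 and 9.83 in Pogz-KO, against 8.89, 9.60 and 9.53 in Pogz-WT, or 903, 935 and 912 in Pogz-KO and 473, 775 and 738 in Pogz-WT on the linear scale. The spread was small in Pogz-KO (SD 0.03, n = 3) and larger in Pogz-WT (SD 0.39, n = 3), where replicate 1 was lowest. Probe set 1418516_at had 9.52, 9.38 and 9.30 in Pogz-KO, against 8.68, 8.95 and 9.09 in Pogz-WT, and 1418515_at had 8.86, 9.12 and 8.92 in Pogz-KO, against 7.81, 8.45 and 8.36 in Pogz-WT. All 3 were higher in every Pogz-KO array. The log2 fold change of the brightest was 0.50 (SE 0.26, 95% interval -0.14 to 1.15, limma adjusted p = 0.424) and, over 5 arrays, 0.28 (SE 0.10, 95% interval 0.05 to 0.50, limma adjusted p = 0.172). For 1418515_at it was 0.76 (SE 0.28, limma adjusted p = 0.411) over 6 arrays and 0.56 (SE 0.13, limma adjusted p = 0.051) over 5 and did not pass. In the same order, 1418516_at had 0.49 (SE 0.24, limma adjusted p = 0.46) and 0.38 (SE 0.12, limma adjusted p = 0.151). The 3 other Mtf2 probe sets overlapped between genotypes, and the mean over all 6 probe sets gave a log2 fold change of -0.02.

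Jarid2, which lacks demethylase activity and helps to recruit the core (chr13:44730774-44921643), had 9.34, 9.45 and 9.37 in Pogz-KO, against 8.95, 8.96 and 9.30 in Pogz-WT at its brightest probe set, 1422698_s_at. The groups did not overlap, although Pogz-WT replicate 3 lay just under Pogz-KO replicates 1 and 3. The log2 fold change was 0.32 (SE 0.20, 95% interval -0.19 to 0.82, limma adjusted p = 0.484), and over 5 arrays 0.25 (SE 0.13, 95% interval -0.03 to 0.54, limma adjusted p = 0.323). The second probe set, 1422697_s_at, overlapped, with 8.14, 8.44 and 8.26 in Pogz-KO, against 8.30, 7.97 and 8.18 in Pogz-WT. Like the brightest, it carries the suffix for probes common to several transcripts. The third, 1450710_at, had 6.69, 6.40 and 6.72 in Pogz-KO, against 3.03, 6.51 and 6.07 in Pogz-WT and also overlapped, with Pogz-WT replicate 1 far below the other arrays.

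Phf19 and Phf1, the other Polycomb-like subunits, had the lowest signals among the brightest probe sets of the subunit genes. Phf19 (chr2:34893752-34914353) had 5.76, 6.46 and 6.39 in Pogz-KO, against 3.89, 6.45 and 5.92 in Pogz-WT at 1427920_at, where all arrays but Pogz-WT replicate 1 lay close together. Its log2 fold change of 0.78 (SE 0.71, 95% interval -0.98 to 2.55, limma adjusted p = 0.608) over 6 arrays was 0.02 (SE 0.31, 95% interval -0.66 to 0.69, limma adjusted p = 0.988) over 5. Phf1 (chr17:26933127-26937908) had 5.84, 5.91 and 6.01 in Pogz-KO, against 4.94, 6.20 and 6.43 in Pogz-WT at 1416542_at, its only probe set. Here the Pogz-KO arrays lay below Pogz-WT replicates 2 and 3 and above replicate 1. The log2 fold change was 0.07 (SE 0.43, 95% interval -1.0 to 1.14, limma adjusted p = 0.951), and over 5 arrays -0.39 (SE 0.27, 95% interval -0.98 to 0.20, limma adjusted p = 0.481). The second Phf19 probe set, 1431857_at, had 3.91, 4.16 and 4.63 in Pogz-KO, against 5.98, 4.93 and 2.64 in Pogz-WT, with a wide spread in Pogz-WT and overlap. The intervals of both genes leave room for changes of either sign over 6 arrays.

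**Figure D3:**
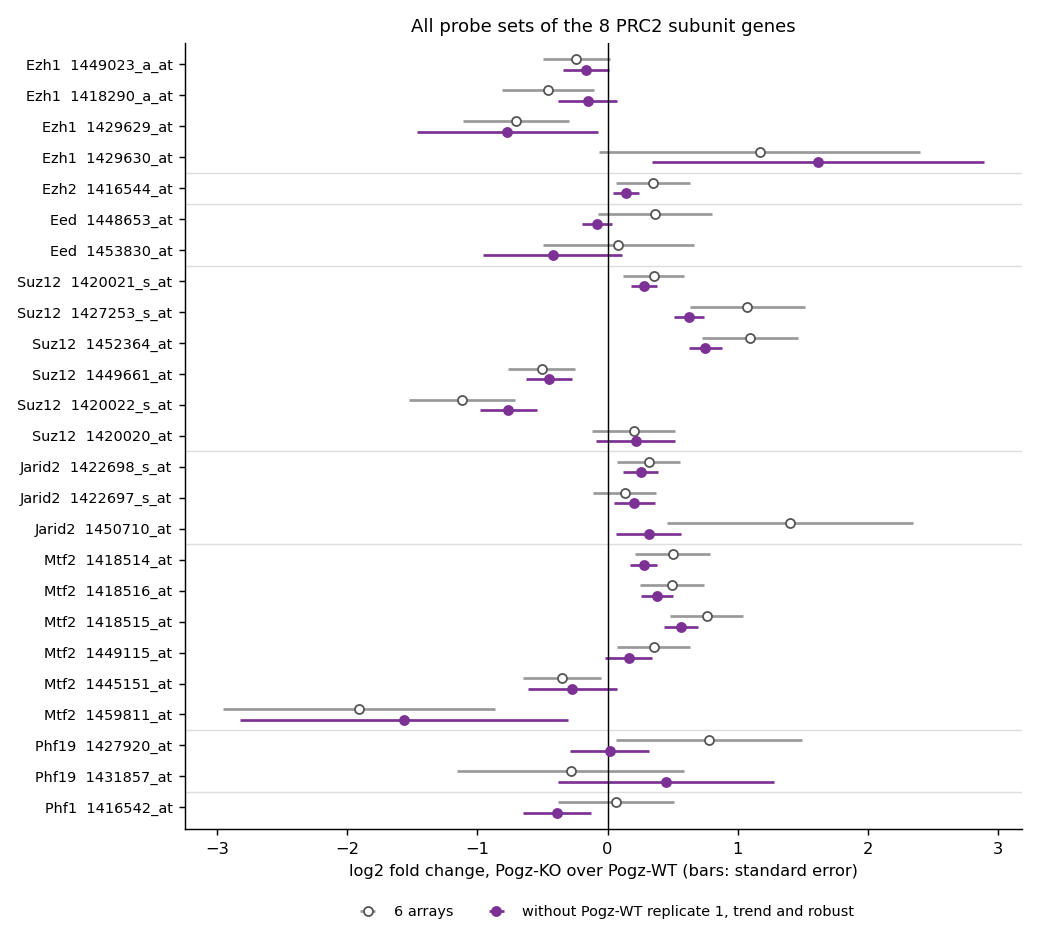
Log2 fold change, Pogz-KO over Pogz-WT, of all 25 probe sets of the 8 genes, with standard errors as bars, over 6 arrays (open) and without Pogz-WT replicate 1 (filled). The Suz12 probe sets at 0.63 and 0.75 passed the 5-array test, and the brightest probe sets of Ezh2, Suz12, Jarid2 and Mtf2 had smaller values over 5 arrays than over 6.

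Counted by groups that did not overlap, 4 of the 8 brightest probe sets were higher in all Pogz-KO arrays, beside 10.8% of all genes, and 0 were lower, beside 16.3%. Over all 25 probe sets, 8 were higher, beside 9.1% of all probe sets, 2 were lower, beside 15.8%, and 15 overlapped. Separation was more frequent among bright probe sets in general. Of the 12 with a mean log2 intensity of at least 8, 8 were higher and 1 was lower, beside 25.7% and 21.2% of the 6918 probe sets of that brightness on the array. The 8 belong to 4 genes, 3 each to Suz12 and Mtf2 and 1 each to Ezh2 and Jarid2.

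The behaviour of Pogz-WT replicate 1 was counted directly. It was the lowest of all 6 arrays in 14 of the 25 probe sets and the highest in 6. The difference of replicate 1 from replicate 2 of Pogz-WT was of the opposite sign to the difference of the Pogz-KO mean from Pogz-WT replicate 3, which shares no array with it, in 21 of 25 probe sets (84%), beside 58.4% of all probe sets. With replicates 2 and 3 exchanged it was so in 15 of 25 (60%), beside 58.3%. The array that stood apart thus departed from its group away from Pogz-KO in most of these probe sets in the first pairing, and about as often as other probe sets in the second.

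**Figure D4:**
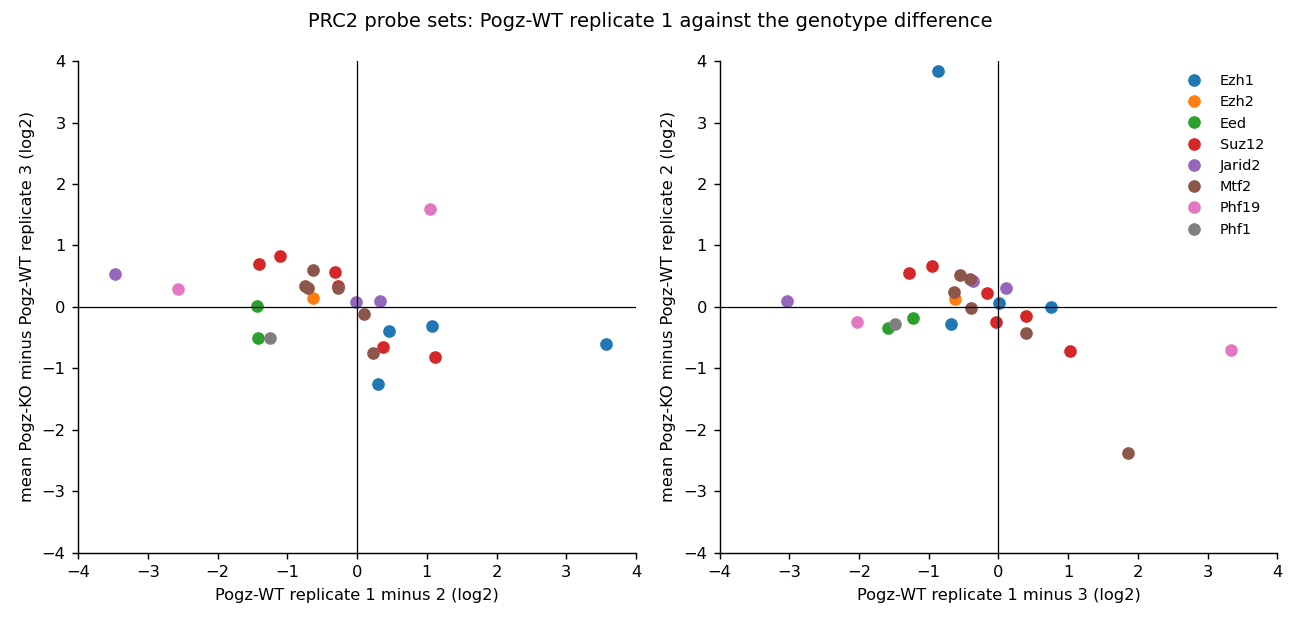
For the 25 PRC2 probe sets, the difference of Pogz-WT replicate 1 from another Pogz-WT replicate (horizontal axis) against the difference of the mean of Pogz-KO from the remaining Pogz-WT replicate (vertical axis), both in log2. In the left panel 21 of 25 points lie in the upper left or lower right part, and in the right panel 15 of 25.

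The promoters of Suz12 and Mtf2, each with 3 probe sets that were higher in every Pogz-KO array, are shown from RefSeq (GRCm38.p6), as the 250 bases before the annotated start, with 30 bases each of the Ezh2 and Phf19 windows. Capitals mark matches to a consensus of E2F factors, which are known to drive Ezh2 and Eed in dividing cells. The letters searched on both strands were TTTCCCGC, TTTCGCGC, TTTGCCGC and TTTGGCGC, and no match overlapped another.
Suz12, chr11:79992856-79993105, plus strand: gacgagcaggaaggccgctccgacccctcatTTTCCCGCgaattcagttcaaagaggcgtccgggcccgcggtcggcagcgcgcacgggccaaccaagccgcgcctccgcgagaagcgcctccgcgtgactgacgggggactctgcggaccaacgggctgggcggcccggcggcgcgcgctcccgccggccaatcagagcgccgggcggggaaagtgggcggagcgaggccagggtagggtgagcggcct
Mtf2, chr5:108065424-108065673, plus strand: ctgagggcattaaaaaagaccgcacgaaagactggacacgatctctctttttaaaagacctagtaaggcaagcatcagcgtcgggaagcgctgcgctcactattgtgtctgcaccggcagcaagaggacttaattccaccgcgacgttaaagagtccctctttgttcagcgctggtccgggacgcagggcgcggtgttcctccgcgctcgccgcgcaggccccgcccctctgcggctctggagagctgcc
Ezh2, chr6:47595009-47595038, minus strand: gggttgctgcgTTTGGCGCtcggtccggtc
Phf19, chr2:34914166-34914195, minus strand: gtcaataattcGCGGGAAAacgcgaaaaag
The 8 genes matched 10 windows of 300 bases, and 3 of these held a match, 1 each of Suz12, Ezh2 and Phf19. Beside them stand 744 of 32851 windows of that length (2.26%). G and C made up 71%, 64.3% and 74.3% of the Suz12, Ezh2 and Phf19 windows, and the 32851 were not matched for this share. The Suz12 match lies at bases 32 to 39 of its window, and that of Ezh2 at bases 254 to 261, past the annotated start. For Ezh2, Phf19 and Mtf2 the annotated starts used for these windows lie inside the gene positions given above. Mtf2 holds none in this window, and Phf19, which holds one, was not separated between genotypes. A match is only a run of letters, and binding was not measured.

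Other proteins that join PRC2 were mixed. Of 7 such genes measured, 0 were higher and 2 lower in the 5-array fit, beside 2.41% and 2.07% of all genes. Among genes with a mean log2 intensity of at least 8 the shares were 7.26% and 7.29%. With median centring 1 of the 7 was called higher and 0 lower. The pair that fell without centring were the brightest probe sets of the histone-binding subunits Rbbp4 and Rbbp7. Rbbp4 had 13.32, 13.25 and 13.20 in Pogz-KO, against 14.46, 13.73 and 13.72 in Pogz-WT at 1434892_x_at and fell by 0.46 on the log2 scale over 5 arrays (SE 0.07, limma adjusted p = 0.0037). Rbbp7 had 12.85, 12.75 and 12.79 in Pogz-KO, against 13.58, 13.21 and 13.26 in Pogz-WT at 1456227_x_at and fell by 0.44 (SE 0.07, limma adjusted p = 0.00611). Both probe sets carry the array's suffix for probes shared with other transcripts, and a second probe set of each gene ran the other way. At 1454791_a_at Rbbp4 had 10.30, 10.67 and 10.74 in Pogz-KO, against 7.43, 10.23 and 9.88 in Pogz-WT, and at 1415775_at Rbbp7 had 11.92, 12.11 and 12.004 in Pogz-KO, against 11.27, 11.82 and 11.89 in Pogz-WT. In both, all Pogz-KO arrays were higher. Rbbp4 was also higher in all of them at 1456260_at, with 8.88, 8.84 and 8.98 in Pogz-KO, against 8.67, 8.55 and 8.67 in Pogz-WT. Its probe set 1454875_a_at overlapped. The probe sets of each gene thus disagreed, so no direction is given for either gene. After quantile normalization both log2 fold changes were -0.23, with the adjusted p on either side of the threshold (0.0488 for Rbbp4 and 0.0619 for Rbbp7), and after median centring they were -0.19 and -0.17 and neither passed (0.180 and 0.307).

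Aebp2, the zinc finger partner that joins PRC2 together with Jarid2, had 9.24, 9.21 and 9.20 in Pogz-KO, against 8.45, 8.89 and 8.84 in Pogz-WT at its brightest probe set, without overlap. Its 5-array log2 fold change was 0.35 (SE 0.11, limma adjusted p = 0.122). Another Aebp2 probe set, 1421021_at, had 5.49, 4.94 and 5.15 in Pogz-KO, against 6.51, 5.69 and 5.69 in Pogz-WT and was lower in every Pogz-KO array, with a 6-array log2 difference of -0.77 (SE 0.34, limma adjusted p = 0.439). Lcor and Lcorl, whose loci also encode accessory subunits of PRC2, were lower in every Pogz-KO array at their brightest probe sets, with 5-array log2 fold changes of -0.35 (SE 0.15, limma adjusted p = 0.249) and -0.51 (SE 0.23, limma adjusted p = 0.271). Lcor also had a probe set, 1429633_at, that was higher in every Pogz-KO array. Epop and Ezhip were dim and overlapped.

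The enzymes that remove the mark were measured as well, and 0 of 3 were called by their brightest probe sets. Kdm6a, an X-linked demethylase that escapes inactivation, had 9.80, 9.84 and 8.96 in Pogz-KO, against 8.68, 8.74 and 9.58 in Pogz-WT. It was high in Pogz-KO replicates 1 and 2 and Pogz-WT replicate 3, the same 3 arrays in which the mean log2 intensity of the Y-linked genes Eif2s3y and Kdm5d was lowest (3.18, 1.04 and 4.13, against 8.19 in Pogz-KO replicate 3 and 6.95 and 8.07 in Pogz-WT replicates 1 and 2). Uty, its Y-linked counterpart, had 3.89, 4.36 and 5.51 in Pogz-KO, against 6.31, 5.73 and 3.65 in Pogz-WT. Kdm6b had 7.99, 6.73 and 7.09 in Pogz-KO, against 8.0, 7.19 and 7.32 in Pogz-WT at its brightest probe set. Its probe set 1456610_at, with 7.63, 7.15 and 7.01 in Pogz-KO, against 3.55, 5.86 and 6.42 in Pogz-WT, rose over 5 arrays by 1.12 (SE 0.26, limma adjusted p = 0.0468), with a log2 difference of 1.19 that did not pass after quantile normalization (adjusted p = 0.0530) and of 1.40 that did after median centring (0.00931). The embryos' sex is not in the labels.

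PRC1 complexes ubiquitylate histone H2A, and only some of their forms read the mark. Of 18 PRC1 subunit genes measured 2 rose and 0 fell over 5 arrays, beside 2.41% and 2.07% of all genes. After quantile normalization 1 was called higher and after median centring 4 were, with 0 lower in both. Bmi1, a core subunit needed for self-renewal of blood stem cells, had 9.40, 8.95 and 9.22 in Pogz-KO, against 7.55, 8.18 and 7.83 in Pogz-WT, a 5-array log2 fold change of 1.19 (SE 0.16, limma adjusted p = 0.00296). Pcgf3, a subunit of a variant complex, had 8.89, 8.78 and 8.88 in Pogz-KO, against 7.67, 8.24 and 8.34 in Pogz-WT and 0.56 (SE 0.13, limma adjusted p = 0.0293). Both were higher in all Pogz-KO arrays. Pcgf2, the close relative of Bmi1, was dim, with 3.67, 4.61 and 4.52 in Pogz-KO, against 6.06, 5.16 and 5.06 in Pogz-WT, and lower in all Pogz-KO arrays with a 5-array log2 fold change of -0.84 (SE 0.56, limma adjusted p = 0.466). The call of Bmi1 held after quantile normalization and median centring (adjusted p = 0.00612 and 0.000347), whereas that of Pcgf3 was lost after the first (0.0534). The PRC1 median was 0.04 over 5 arrays, beside -0.10 for all genes, and turned to -0.02 after quantile normalization.

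Genes that PRC2 commonly silences were largely at the dim end in both genotypes. Of 33 Hox genes measured, 0 were called, 0 were higher in all Pogz-KO arrays and 5 were lower, beside 10.8% higher and 16.3% lower of all genes. Among all 7542 genes with a mean log2 intensity under 5, 169 were higher and 1095 lower by the same count. The mean log2 intensity of the Hox genes reached 5 in 3 genes in Pogz-KO and in 7 in Pogz-WT. Among all 18193 genes it did so in 10249 in Pogz-KO and in 11475 in Pogz-WT. Among the 7542 dim genes it did so in 213 in Pogz-KO and in 1003 in Pogz-WT. Hoxa2 had 2.08, 2.03 and 3.43 in Pogz-KO, against 4.89, 3.99 and 4.39 in Pogz-WT, Hoxb9 had 1.92, 1.85 and 2.52 in Pogz-KO, against 4.48, 2.80 and 4.99 in Pogz-WT, and Hoxc13 had 0.07, 1.52 and 0.73 in Pogz-KO, against 2.15, 2.58 and 4.54 in Pogz-WT. Of 34 other Polycomb target genes 0 were called, 0 were higher in all Pogz-KO arrays and 10 were lower, beside the same shares of all genes, and the mean reached 5 in 3 genes in Pogz-KO and in 13 in Pogz-WT. Bmp2, a signalling ligand, had 3.69, 4.40 and 3.98 in Pogz-KO, against 5.69, 5.48 and 5.37 in Pogz-WT. Pax7, a muscle regulator, had 1.78, 3.66 and 1.88 in Pogz-KO, against 5.58, 5.32 and 4.89 in Pogz-WT, and Irx3, a homeobox gene, had 3.93, 3.39 and 3.86 in Pogz-KO, against 6.06, 5.42 and 4.93 in Pogz-WT. The 5-array medians were -0.48 for Hox genes and -0.77 for the other targets. Beside them stands a median of -0.39 for all 7542 genes with a mean log2 intensity under 5. The median intensity of an array was 29.7 to 31.5 in Pogz-KO and 35.9 to 54.3 in Pogz-WT, and quantile normalization, which removes this offset, moved the 5-array medians to -0.07 for those dim genes, -0.27 for Hox genes and -0.51 for the other targets, beside -0.02 for all genes.

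**Figure D5:**
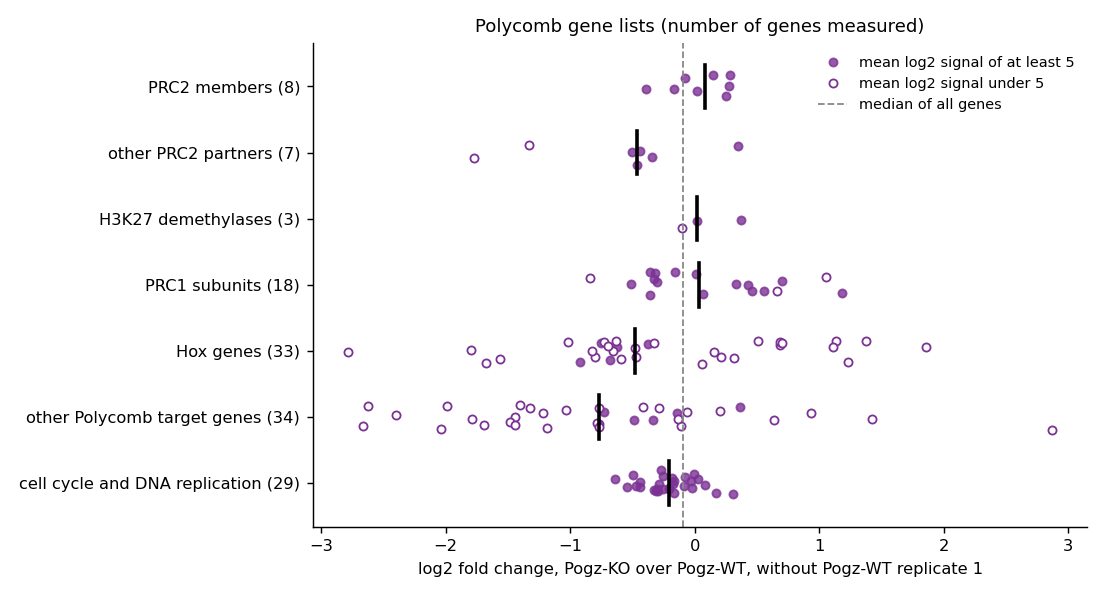
Log2 fold change, Pogz-KO over Pogz-WT, of the genes of each Polycomb list and of a cell cycle list over 5 arrays, without Pogz-WT replicate 1; filled points have a mean log2 intensity of at least 5, vertical bars are list medians and the dashed line is the median of all genes. The PRC2 subunits and PRC1 lie around 0.08 and 0.04, and the mostly dim target genes around -0.48 and -0.77.

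PRC2 genes are usually more abundant in dividing and immature cells, so lists for both were read beside them. In the 5-array fit 7.26% of the 4350 genes with a mean log2 intensity of at least 8 were called higher and 7.29% lower, beside the shares of 2.41% and 2.07% over all genes. Of 29 cell cycle and DNA replication genes 0 rose and 6 fell over 5 arrays. Among them, the replication helicase subunit Mcm4 had 11.58, 11.53 and 11.65 in Pogz-KO, against 12.51, 12.08 and 12.38 in Pogz-WT. The ribonucleotide reductase subunit Rrm2 had 13.45, 13.46 and 13.39 in Pogz-KO, against 14.64, 13.92 and 13.94 in Pogz-WT. Both were read by probe sets with the suffix for shared probes, like those of Rbbp4 and Rbbp7 that fell. Other probe sets of Mcm4 and Rrm2 were not examined here, so each fall is that of a single probe set. Of 12 early progenitor markers 2 rose, namely the stem cell factor receptor Kit and the transcription factor Myb. Kit had 8.98, 8.80 and 9.01 in Pogz-KO, against 6.90, 8.07 and 7.98 in Pogz-WT. Myb had 11.18, 11.25 and 11.31 in Pogz-KO, against 10.39, 10.83 and 10.77 in Pogz-WT. The probe sets of Myb and of the erythroid marker Slc4a1 carry the suffix for shared probes as well. The summed intensity of that list was 13422 to 14263 in Pogz-KO and 11244 to 14885 in Pogz-WT. Its median log2 fold change over 5 arrays was -0.03, beside -0.10 for all genes, and 6 of the 12 values were above 0. That median was 0.10 after quantile normalization and 0.24 after median centring. Of 15 erythroid markers 5 fell, and their sum was 79215 to 85473 in Pogz-KO and 105715 to 123717 in Pogz-WT. Of 10 granulocyte markers 4 rose, with a sum of 49866 to 57270 in Pogz-KO and 49346 to 85575 in Pogz-WT, and of 13 hepatocyte and hepatoblast markers 1 fell, with a sum of 17297 to 27837 in Pogz-KO and 28360 to 51214 in Pogz-WT. Calls in these lists depended on the scaling: after quantile normalization 5 cell cycle genes, 1 erythroid and 0 hepatic markers still fell, and after median centring 0 cell cycle genes, 1 erythroid (Slc4a1) and 1 hepatic marker (Afp) did, with a cell cycle median of 0.06, against -0.21 without centring. Kit and Myb rose under both, and after median centring 3 progenitor markers, 2 cell cycle genes and 1 erythroid marker did. Granulocyte markers that rose numbered 3 after quantile normalization and 7 after median centring. The 5-array fit called 0 of 10 macrophage, 7 megakaryocyte, 7 B cell and 10 endothelial and stromal markers. None of these markers was listed at 0, and their part in the PRC2 values was not tested.

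The genes whose pattern was most like that of Ezh2 were sought among 4349 others with a mean log2 intensity of at least 8, by the root mean square difference of their centred log2 values over the 6 arrays. They were Fam117a, at 0.02, Vcp, at 0.02, and Rab8b, at 0.03. Fam117a had 11.45, 11.63 and 11.65 in Pogz-KO, against 10.83, 11.47 and 11.42 in Pogz-WT. Like Ezh2, all 3 were lowest in Pogz-WT replicate 1, but in each of them the genotypes overlapped. The likeness is a description over 6 arrays that share their processing.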

How the data were processed

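Total RNA (100 ng) of 3 Pogz-KO and 3 Pogz-WT fetal livers was labelled with a 3' kit and hybridized by the authors to Affymetrix mouse genome expression arrays. To make the deposited table of linear intensity values, the authors used Affymetrix Expression Console. For its version and its summary algorithm, not given in the sources used here, no assumption was made. Each array has the same trimmed mean but its own median, so dim values can carry an offset between arrays. Columns were mapped to samples by their names, and 0 columns of other samples were present.

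Log2 was taken without a pseudocount. After 64 controls were removed, 45037 probe sets were tested, of which 34945 name 1 gene, 932 several and 9160 none in the annotation used. Each of 18193 genes was represented by its brightest probe set, judged by the mean over the 6 arrays. Genotypes were compared in R 4.3.3 by the functions lmFit and eBayes of limma 3.58.1 (two-sided, Benjamini-Hochberg adjustment over all genes or all probe sets), and a call is an adjusted p under 0.05. The script was tested on simulated data. The number of arrays limits the precision, and p-values measure the spread between these livers.

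The text names all probe sets of the 8 subunits, all other measured PRC2 partners and H3K27 demethylases, Pogz, from each of the PRC1, Hox and other Polycomb target lists the 3 genes with the largest absolute moderated t over 6 arrays, and the 3 genes most like Ezh2. Further genes (Mcm4, Rrm2, Kit, Myb, Slc4a1 and Afp) were picked after their values were seen. The members and lists were chosen with earlier results of these data known. Alternatives were quantile normalization, median centring, a filter at a mean log2 intensity of 5, a pseudocount of 32 and limma with trend and robust. Others were an unpaired equal-variance t-test, the mean of all probe sets of a gene and a block on replicate number. A covariate of 2 Y-linked genes was also used, and each array was left out in turn. Promoter windows and gene positions came from RefSeq tables of GRCm38.p6.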

Additional observations from a re-analysis of the deposited data

How the results depend on the processing

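The 6-array count of 0 called genes held under quantile normalization, median centring, the dim filter, the probe set mean, the 1.5-fold cutoff, the Y-linked covariate and the replicate block (0 genes, 0 probe sets and 0 PRC2 members called under the block), and for each array left out (0 to 0). Deviations from the group mean correlated at -0.005 to 0.008 in same-numbered pairs of arrays and at -0.015 to 0.020 in the other pairs. These values do not tell whether the replicate numbers pair the arrays. The count was 1 gene and 3 probe sets with the pseudocount, 1 and 2 with the equal-variance t-test, and 22 and 17 with trend and robust. Without Pogz-WT replicate 1 and with trend and robust it was 815 genes and 1202 probe sets, 679 and 974 after quantile normalization, and 1944 and 2912 after median centring. With a further array left out, an alternative added after the data were seen, it was 101 to 796 genes and 89 to 1121 probe sets. PRC2 members were called only in the 5-array fit with median centring, which called 4 (limma adjusted p = 0.0304 for Ezh2, 0.00528 for Suz12, 0.0310 for Jarid2 and 0.00885 for Mtf2), and which moves the all-gene median to 0.18. Over 6 arrays median centring moves it to 0.29. The cause of these differences was not tested.

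No called value changed sign. Among log2 fold changes not called in the same fit, these did. With 1 array left out of the 6-array or of the 5-array fit, values ran over -0.39 to 0.066 for Ezh1, -0.18 to 0.64 for Eed, -0.25 to 1.30 for Phf19, -0.51 to 0.35 for Phf1, -0.69 to 0.0041 for Ezh1 1418290_a_at, -0.60 to 3.84 for Ezh1 1429630_at, -0.72 to 0.46 for Eed 1453830_at, -0.14 to 0.57 for Suz12 1420020_at, -0.015 to 0.54 for Mtf2 1449115_at and -1.22 to 1.59 for Phf19 1431857_at. In the 5-array fit with trend and robust, Eed was -0.079, Phf1 -0.39, Eed 1453830_at -0.42 and Phf19 1431857_at 0.45. Quantile normalization of these 5 arrays gave -0.12, -0.29, -0.13 and 0.78 for the same probe sets, and 0.0047 for Mtf2 1445151_at and 0.21 for Phf19 1431857_at over 6 arrays. Median centring of the 5 arrays gave 0.11 for Ezh1, -0.12 for Phf1, 0.12 for Ezh1 1418290_a_at, -0.15 for Eed 1453830_at, 0.0022 for Mtf2 1445151_at and 0.72 for Phf19 1431857_at. Over 6 arrays it gave 0.22 for Ezh1, 0.0016 for Ezh1 1418290_a_at, 0.11 for Mtf2 1445151_at and 0.18 for Phf19 1431857_at. The Y-linked covariate gave -0.31 for Eed 1453830_at and 0.22 for Phf19 1431857_at. The mean over all its probe sets gave -0.024 for Mtf2.

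The 2 remaining Pogz-WT arrays limit the 5-array fit, in which their spread rests on 1 difference, and where a further Pogz-WT array is left out the lone one is assumed to vary like the Pogz-KO arrays. For the brightest probe sets of Phf19 and Phf1 the wide spread over 6 arrays came from Pogz-WT replicate 1. Small changes of these probe sets were not detectable there.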
